A study of Mus musculus with 6 samples.

Results

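The colony-stimulating factors, interleukin-34 and their receptors form a small set of cytokine genes. Its 9 members were found by symbol among the 55487 genes of the deposited count table: the ligands Csf1, Il34, Csf2 and Csf3, and the receptor genes Csf1r, Csf2ra, Csf2rb, Csf2rb2 and Csf3r. RNA sequencing had been done on whole dorsal skin of mice taken on day 2 of treatment with DPCP (diphenylcyclopropenone, a contact sensitiser). The 3 libraries labelled DPCP+Codrosome came from mice that also received clodrosome, liposomes that carry clodronate and kill phagocytes that take them up. The 3 libraries labelled DPCP+Encapsome came from mice given the matching liposomes without the drug, called encapsosome in the series' own text. Both groups therefore carried DPCP, and no skin without DPCP was analysed here; the strain, age, route and dose are not given in the sources used here. The question put by the series is what macrophage depletion changes in sensitised skin, and here it is put to these 9 genes.

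As background, CSF1 and IL-34 are ligands of one receptor tyrosine kinase, CSF1R, on which most tissue macrophages depend for survival. IL-34, made by keratinocytes, maintains Langerhans cells of the epidermis, while CSF1 serves macrophages of the dermis. GM-CSF, the product of Csf2, binds the alpha chain encoded by Csf2ra and signals through the common beta chain encoded by Csf2rb, which the IL-3 and IL-5 receptors share. Csf2rb2 encodes a closely related beta chain of the mouse that serves IL-3. G-CSF, the product of Csf3, acts through CSF3R to drive the production and release of neutrophils.

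Relative to encapsome, 4 of the 5 receptor genes fell with clodrosome: Csf1r by 1.92-fold, Csf2ra by 1.59-fold, Csf2rb2 by 1.28-fold and Csf2rb by 1.23-fold. One ligand, Csf3, rose 3.35-fold. No call was made for Csf1, Il34 and Csf3r, and Csf2 had too few counts to be tested. Thus 5 of the 8 tested members passed an adjusted p of 0.05 in edgeR's quasi-likelihood test, 4 lower and 1 higher. Over all 17988 genes tested the same rule called 22.4%, with 13.0% lower and 9.41% higher. The same 5 members had groups that did not overlap in CPM (library-scaled counts, adjusted for library composition), as did 40.2% of all genes tested. DESeq2 called the same 5 members, and it called 21.9% of all genes with an adjusted p. Without clodrosome library C, 3 members were called, since Csf1r and Csf2rb no longer passed.

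Library totals ran from 26649396 to 35566351 counts, except clodrosome library A with 116965654. The libraries are named A, B and C in the order of their columns within a group, and the letters pair nothing between groups. Nothing states that the 3 libraries of a group came from separate mice, so the p-values measure the spread between libraries only. Keratinocyte markers, of the cells that make IL-34, were abundant in every library, as the skin label would have it. They summed to 22336 to 23345 CPM with clodrosome and 15651 to 19547 CPM with encapsome, without overlap. The single markers did not move together. Of 8 keratinocyte markers 3 were called lower and 3 higher (median log2 difference 0.06), beside 13.0% and 9.41% of all genes tested. In bulk RNA, fewer cells of a type and less RNA per cell cannot be told apart. Summed macrophage markers, a list that holds Csf1r itself, reached 848 to 1859 CPM with clodrosome and 4144 to 4952 CPM with encapsome. Summed fibroblast markers also differed, at 2339 to 4539 CPM against 8263 to 9774 CPM. Blood endothelium markers (640 to 654 against 347 to 438 CPM) and skeletal muscle markers (2318 to 3169 against 1695 to 1929 CPM) stood higher with clodrosome, without overlap. The part of any of these shifts in the results for the 9 genes was not tested.

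**Figure D1:**
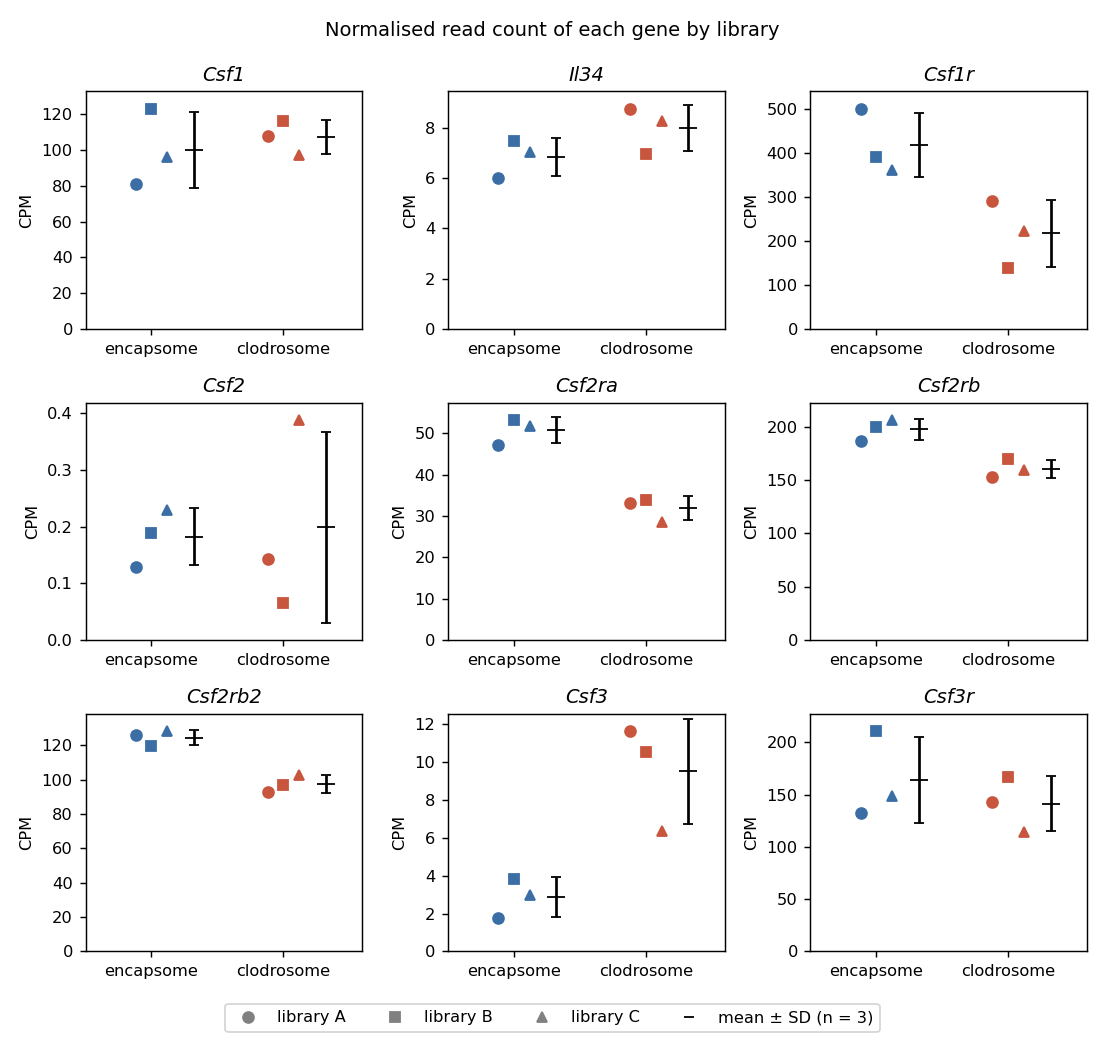
CPM of each of the 9 genes (linear axes from 0, 1 panel per gene) in the 3 encapsome and the 3 clodrosome libraries, with 1 point per library and a black bar for the group mean and its SD. The groups are apart for Csf1r, Csf2ra, Csf2rb, Csf2rb2 and Csf3 and overlap for Csf1, Il34, Csf2 and Csf3r.

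The first sequences bear on how far the counts of the beta chain genes can be told apart. The coding sequences of the GENCODE M21 transcripts of Csf2rb (2691 bases) and Csf2rb2 (2637 bases) were identical at 95.2% of aligned bases, with 126 substitutions, 66 gap columns and a longest identical run of 242 bases. Reads with more than 1 reported place were left out of the deposited counts. Windows of 150 bases, the read length, were found unchanged in the other transcript for 3.58% of Csf2rb and 3.59% of Csf2rb2, so most of either gene could be read apart by exact match. The most divergent 90-base stretch within 1 exon differed at 16 bases, which are in capitals. In GRCm38 it lies in coding exons at chr15:78338897-78338986 (plus strand) for Csf2rb and chr15:78294345-78294434 (minus strand) for Csf2rb2.

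Csf2rb: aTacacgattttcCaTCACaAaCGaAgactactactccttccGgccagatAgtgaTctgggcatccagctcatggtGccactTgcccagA

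Csf2rb2: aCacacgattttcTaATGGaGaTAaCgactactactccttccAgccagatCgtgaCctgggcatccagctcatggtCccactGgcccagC

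Promoters of some receptor genes are shown because PU.1, the ETS factor encoded by Spi1 that is known to act at myeloid receptor genes, had itself a lower transcript level (given with the CSF1R signalling genes). The window runs from 250 bases before to 50 after the RefSeq start of the gene on GRCm38.p6. It was examined for 5 of the 9 members, Csf1, Csf2, Csf2ra, Csf2rb2 and Csf3r. No window of Csf1r, Il34, Csf2rb or Csf3 was examined, so nothing is said here of their promoters. Capitals mark GAGGAA, the core that PU.1 binds, or its reverse complement TTCCTC. It lies once in the Csf3r window (chr4:126024409-126024708, plus strand), at 2 places in the Csf2rb2 window (chr15:78305672-78305971, minus strand) and at 2 adjacent places in the Csf2ra window (chr19:61228369-61228668, minus strand). The Csf1 and Csf2 windows hold no match. Of all 32851 promoter windows of this length, 28.3% hold 1 or more, so a match is common and marks letters only, not a bound site.

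Csf2ra promoter: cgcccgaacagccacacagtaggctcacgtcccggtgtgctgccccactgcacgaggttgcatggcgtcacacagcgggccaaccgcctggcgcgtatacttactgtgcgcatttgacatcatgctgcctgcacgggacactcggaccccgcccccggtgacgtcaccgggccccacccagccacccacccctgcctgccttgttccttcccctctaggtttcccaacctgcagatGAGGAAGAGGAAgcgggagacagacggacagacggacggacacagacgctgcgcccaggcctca

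Csf2rb2 promoter: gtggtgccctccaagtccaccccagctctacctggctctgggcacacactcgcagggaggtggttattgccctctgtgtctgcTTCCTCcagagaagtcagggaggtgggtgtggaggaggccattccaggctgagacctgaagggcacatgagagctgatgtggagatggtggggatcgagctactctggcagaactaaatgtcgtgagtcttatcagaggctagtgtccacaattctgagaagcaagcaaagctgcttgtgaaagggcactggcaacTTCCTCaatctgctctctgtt

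Csf3r promoter: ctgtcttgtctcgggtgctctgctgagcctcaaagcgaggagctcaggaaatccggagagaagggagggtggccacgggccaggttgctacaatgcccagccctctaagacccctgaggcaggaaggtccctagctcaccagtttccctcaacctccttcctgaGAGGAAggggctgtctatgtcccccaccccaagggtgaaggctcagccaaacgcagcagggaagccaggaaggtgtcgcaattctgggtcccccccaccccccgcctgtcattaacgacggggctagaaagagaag

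Among the ligands, Csf3 showed the largest change of the 8 tested members. Csf3 (ENSMUSG00000038067, chr11:98701263-98703629, plus strand) had 11.6, 10.6 and 6.39 CPM in clodrosome libraries A, B and C and 1.74, 3.85 and 2.97 CPM in encapsome libraries A, B and C. Every clodrosome library was above every encapsome library. The means were 9.53 ± 2.77 and 2.85 ± 1.06 CPM (SD, n = 3 each), a log2 difference of 1.74 ± 0.30 (SE; 95% confidence interval 1.07 to 2.42; edgeR adjusted p = 0.00342). Counts behind these values were 1391, 321 and 231 with clodrosome and 54, 123 and 78 with encapsome. G-CSF thus rose at the RNA level from a low base, and the call held without any single library (edgeR adjusted p at most 0.0164).

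The ligands of CSF1R were not called. Csf1 (ENSMUSG00000014599, chr3:107741048-107760469, minus strand) had 108, 116 and 97.6 CPM with clodrosome and 80.9, 123 and 96.3 CPM with encapsome. The groups overlapped, and the log2 difference was 0.10 ± 0.14 (SE; 95% confidence interval -0.21 to 0.41; edgeR adjusted p = 0.657). Il34 (ENSMUSG00000031750, chr8:110741829-110805924, minus strand) had 8.74, 6.97 and 8.27 CPM with clodrosome and 6.0, 7.48 and 7.04 CPM with encapsome. Here too the groups overlapped, since clodrosome library B lay below encapsome libraries B and C. The log2 difference for Il34 was 0.23 ± 0.14 (SE; 95% confidence interval -0.09 to 0.55; edgeR adjusted p = 0.287). The intervals leave room for a change of either sign but not for a fall in Csf1 or Il34 as large as the fitted fall in Csf1r. Of the Il34 exonic bases, 4.95% are shared with annotated neighbours, and reads there were left out.

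Csf2, the gene of GM-CSF (ENSMUSG00000018916, chr11:54247271-54249667, minus strand), was near the limit of detection. It had 17, 2 and 14 counts in clodrosome libraries A, B and C and 4, 6 and 6 counts in encapsome libraries A, B and C. These are 0.142, 0.0658 and 0.387 CPM against 0.129, 0.188 and 0.228 CPM. The lowest and the highest library were both clodrosome libraries, and no difference was detectable at this depth. In a fit with no low-count filter the 95% confidence interval of its log2 difference ran from -1.43 to 1.68 (edgeR adjusted p = 0.946).

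Of the receptors, Csf1r had the largest fall. Csf1r (ENSMUSG00000024621, chr18:61100598-61132149, plus strand) had 290, 139 and 222 CPM in clodrosome libraries A, B and C against 499, 391 and 361 CPM in encapsome libraries A, B and C. The groups did not overlap, but the clodrosome libraries differed among themselves, with B lowest and A highest. The log2 difference was -0.94 ± 0.23 (SE; 95% confidence interval -1.46 to -0.42; edgeR adjusted p = 0.0183). Its adjusted p in edgeR came to 0.0550 when clodrosome C was left out and to 0.0625 when encapsome A was, so that the call then failed. Since 15.1% of its exonic bases are shared with Hmgxb3, where reads were left out, its level is understated in all 6 libraries.

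Csf2ra, the GM-CSF receptor alpha chain, had the largest difference relative to its error of the 8 tested members. Csf2ra (ENSMUSG00000059326, chr19:61223957-61228429, minus strand) had 33.2, 34.0 and 28.6 CPM with clodrosome and 47.1, 53.2 and 51.9 CPM with encapsome. The groups were well apart, and the log2 difference was -0.67 ± 0.09 (SE; 95% confidence interval -0.87 to -0.47; edgeR adjusted p = 9.82e-04). Leaving out any single library kept it called (edgeR adjusted p at most 0.00693).

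The beta chains fell less. Csf2rb2 (ENSMUSG00000071714, chr15:78282507-78305721, minus strand) had 92.9, 96.7 and 103 CPM with clodrosome and 126, 119 and 128 CPM with encapsome. Its log2 difference was -0.35 ± 0.07 (SE; edgeR adjusted p = 0.00746), and it stayed called without any single library (at most 0.0404). Csf2rb (ENSMUSG00000071713, chr15:78325752-78353847, plus strand) had 152, 170 and 159 CPM with clodrosome and 187, 199 and 206 CPM with encapsome. Neither gene's groups overlapped. The log2 difference of Csf2rb was -0.30 ± 0.08 (SE; edgeR adjusted p = 0.0209). Its call was lost without clodrosome library A (edgeR adjusted p = 0.0635), clodrosome library C (0.0697), encapsome library B (0.0744) or encapsome library C (0.0931).

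Csf3r, the G-CSF receptor and a neutrophil gene, was not called although its ligand rose. Csf3r (ENSMUSG00000028859, chr4:126024550-126044440, plus strand) had 143, 167 and 114 CPM with clodrosome and 132, 210.5 and 149 CPM with encapsome. The groups overlapped, with the highest value in encapsome library B and the lowest in clodrosome library C. Its log2 difference was -0.21 ± 0.18 (SE; 95% confidence interval -0.62 to 0.19; edgeR adjusted p = 0.442).

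**Figure D2:**
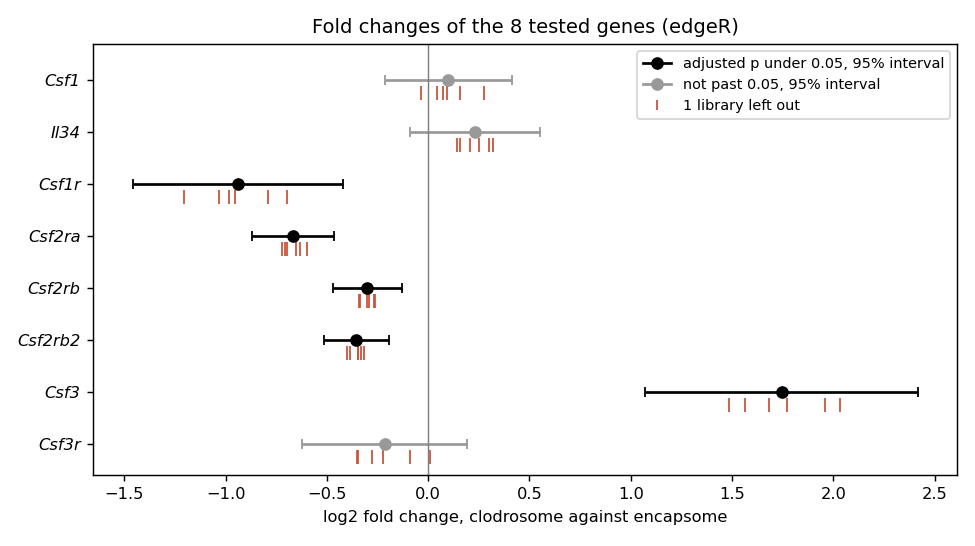
Log2 difference (clodrosome minus encapsome) of the 8 tested members with 95% confidence intervals from edgeR (black where called, grey where not), and ticks below for the fits that leave out 1 library. The intervals of Csf1r, Csf2ra, Csf2rb, Csf2rb2 and Csf3 leave out 0, and those of Csf1, Il34 and Csf3r include it.

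Levels were set against each other per kilobase of the deposited gene length (RPKM, CPM per kilobase), since CPM alone grows with the length of a gene. With encapsome the order was Csf1r (72.3 ± 12.6 RPKM, SD, n = 3), Csf3r (45.4 ± 11.4), Csf2rb (27.1 ± 1.33), Csf2rb2 (26.3 ± 0.971), Csf1 (18.95 ± 4.03), Csf2ra (17.7 ± 1.11), Il34 (3.49 ± 0.387), Csf3 (2.02 ± 0.749) and Csf2 (0.227 ± 0.0624). The libraries of Csf2rb and Csf2rb2 overlapped in that order, as did those of Csf1 and Csf2ra. With clodrosome Csf3r (39.1 ± 7.29 RPKM) and Csf1r (37.6 ± 13.1) stood first and overlapped, and Csf3 (6.74 ± 1.96) stood above Il34 (4.08 ± 0.468). Csf2rb (22.05 ± 1.20 RPKM), Csf2rb2 (20.6 ± 1.07) and Csf1 (20.3 ± 1.78) followed, with libraries of Csf2rb and Csf2rb2 overlapping and those of Csf2rb2 and Csf1 overlapping. Csf1r lay above Csf2rb, and Csf1 above Csf2ra (11.1 ± 1.01), without overlap. Csf2 was again lowest, at 0.248 ± 0.210 RPKM. Receptor RNA thus stood above the RNA of its own ligand in both groups for all 3 receptor systems.

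**Figure D3:**
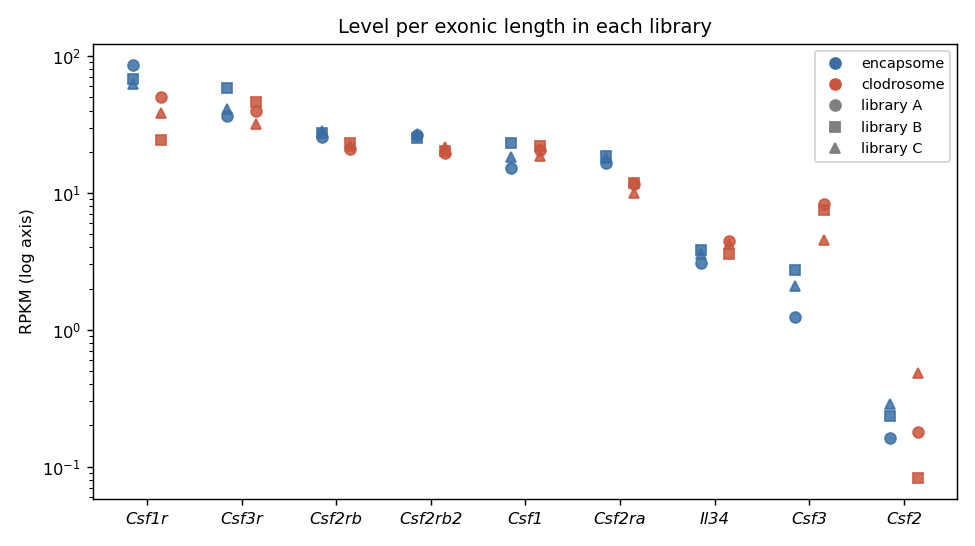
Level per length (RPKM, log axis) of the 9 genes in each library, ordered by the encapsome mean, with 1 point per library. Csf1r leads with encapsome at a mean of 72.3 RPKM and overlaps with Csf3r with clodrosome, and Csf2 is lowest in both.

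Ratios within a library show whether members moved by unlike amounts. For 14 ratios the exact two-sided permutation test over 3 against 3 libraries can give no p below 0.10, so none can pass 0.05. On the CSF1 axis the ratio of ligand to receptor was higher with clodrosome: Csf1 per Csf1r was 0.407, 0.912 and 0.480 with clodrosome and 0.177, 0.344 and 0.292 with encapsome, per length. The groups did not overlap (log2 difference 1.11, exact permutation p = 0.10, adjusted 0.14). Il34 per Csf1r also differed without overlap, by 1.21 (exact permutation p = 0.10, adjusted 0.14). The balance of the ligands themselves, Il34 per Csf1, was 0.218, 0.162 and 0.228 against 0.200, 0.164 and 0.197, groups that overlapped.

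Relative to each of 5 other macrophage genes, Csf1r stood higher in every clodrosome library than in every encapsome library. These 5 are only a part of the macrophage list of 16 genes, and no ratio to the rest was taken. Timd4, of the rest and chosen after its values were seen, changed by -0.84 without clodrosome library C, where Csf1r changed by -0.95. Without encapsome library B the changes were -0.71 and -0.98, and without encapsome library A -0.81 and -0.79. The log2 ratio of Csf1r was higher with clodrosome by 1.51 to Cd163, 1.10 to Mrc1, 1.04 to Cd68, 0.91 to C1qa and 0.46 to Adgre1, with no overlap for any of the 5 (exact permutation p = 0.10 each, adjusted 0.14). Csf1r per Cd163, a scavenger receptor gene, was 2.12, 5.20 and 1.80 with clodrosome and 1.02, 0.835 and 1.0 with encapsome. Clodrosome library B, the lowest in Csf1r, was the highest in that ratio.

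Within the GM-CSF receptor the balance of the chains was set beside that of the other pairs. Csf2rb per Csf2ra was 1.81, 1.97 and 2.2 with clodrosome and 1.56, 1.48 and 1.57 with encapsome, without overlap (log2 difference 0.37, exact permutation p = 0.10, adjusted 0.14). Csf2rb2 per Csf2rb overlapped between groups, with a log2 difference of -0.05 (exact permutation p = 0.5). Csf2ra per Csf1r overlapped as well (0.32, exact permutation p = 0.6).

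Set beside 3 other genes of the neutrophil marker list, Csf3r gave unlike ratios. Which cells of the whole skin made these 3 was not tested. Csf3r per Cxcr2, the receptor that guides neutrophils along chemokines, was 1.91, 1.61 and 1.77 with clodrosome and 1.88, 1.57 and 1.83 with encapsome (exact permutation p = 1.0). Csf3r per Retnlg was 0.896, 0.561 and 0.512 against 2.01, 4.08 and 3.46, without overlap (log2 difference -2.26, exact permutation p = 0.10, adjusted 0.14). Csf3r per S100a8, a calprotectin subunit gene, was lower by a log2 difference of -0.65, also without overlap and at the same p.

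**Figure D4:**
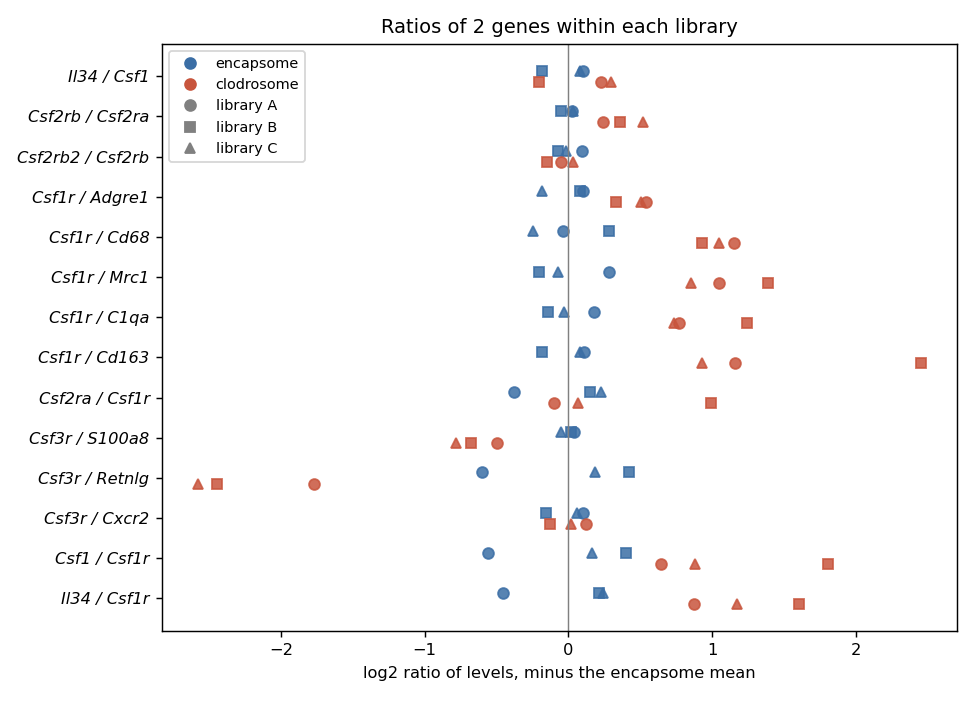
Log2 ratio of length-scaled values for the 14 gene pairs, drawn as the difference from the encapsome mean of the pair, with 1 point per library. The groups are apart for 10 pairs and overlap for Il34/Csf1, Csf2rb2/Csf2rb, Csf2ra/Csf1r and Csf3r/Cxcr2.

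Among 26 genes listed for CSF1R signalling, 16 fell and none rose, beside 13.0% lower and 9.41% higher of all genes tested. The list median of the log2 difference was -0.49 against 0.01 over all genes tested. With edgeR, Grb2, the adaptor that links receptor tyrosine kinases to Ras, changed by -0.97 (adjusted p = 1.06e-04). Pik3cd, a catalytic subunit of PI3-kinase of white cells, changed by -1.13 (edgeR adjusted p = 1.48e-04), and its relative Pik3cg by -1.10 (1.57e-04). The adaptor Dok2 changed by -1.21 (edgeR adjusted p = 3.44e-04). Chosen after their values were seen, Spi1 fell from 101 to 52.3 CPM (edgeR adjusted p = 5.26e-04), Tyrobp had -0.96 (3.56e-04), and Src (0.13, 0.377) and Plcg2 (0.01, 0.952) were not called. Many of these genes are expressed in white cells at large, not only downstream of this receptor. The whole macrophage list fell, 16 of 16 with a median of -1.83, beside this list (14 to 16 genes with 1 library left out).

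For the beta common chain and G-CSF receptor, 5 of 20 tested signalling genes fell and none rose (median -0.19), a share called near the 22.4% of all genes tested. Il3ra, the alpha chain of the IL-3 receptor that pairs with both beta chains, changed by -1.18 (edgeR adjusted p = 8.89e-04). The smaller changes of Stat5b (-0.29, edgeR adjusted p = 0.0212), Lyn (-0.47, 0.0271) and Cebpa (-0.35, 0.0296) were each lost when clodrosome C, encapsome B or encapsome C was left out, and a single gene of the list was then called. Lyn also needed clodrosome B, and Cebpa also clodrosome A and encapsome A. Il3 and Il5 had too few counts to be tested.

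Of 13 genes known to respond to GM-CSF in myeloid cells, 3 fell and 1 rose (median -0.42), to be read against the same 22.4%. Cd209a, a lectin of monocyte-derived dendritic cells, changed by -1.63 (edgeR adjusted p = 3.09e-04), and the integrin gene Itgax by -0.95 (1.53e-04). Retnla had -1.56 (edgeR adjusted p = 0.0132), lost without encapsome library B (0.0539), which left 2 genes of the list called. The chemokine gene Ccl22 rose by 0.45 (edgeR adjusted p = 0.0378), a call lost when clodrosome C or any encapsome library was left out (edgeR adjusted p at most 0.14).

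Among 8 genes of other IL-34 receptors and of the proteases that release the CSF1R ectodomain, 2 fell and 2 rose (median -0.06), beside the same 22.4%. Trem2, a lipid receptor of macrophages, dropped from 72.2 ± 13.8 to 7.48 ± 1.25 CPM (SD, n = 3; edgeR log2 difference -3.25, adjusted p = 4.42e-05). Ptprz1 (0.44, edgeR adjusted p = 0.0348), Sdc1 (0.33, 0.0213) and Adam10 (-0.24, 0.0373) each lost their call when clodrosome C, encapsome B or encapsome C was left out, and 1 gene of the list was then called. Ptprz1 also needed clodrosome A, Sdc1 encapsome A, and Adam10 both of these, and Adam10 was not called with upper-quartile scaling or without the filter. Adam17, the main sheddase of CSF1R, was level at 152 CPM in both groups (edgeR log2 difference 0.00, adjusted p = 0.989).

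Of 15 tested genes that induce colony-stimulating factors or carry the inducing signal, 4 fell and 1 rose (median -0.11), again beside 22.4% of all genes called. The list held 17 genes, but Il17a had too few counts to be tested and Il36a was not matched by symbol. The interleukin-1 receptor gene Il1r1 changed by -0.77 (edgeR adjusted p = 0.00297), Tnfrsf1b by -0.36 (0.0111), Tslp by -1.30 (0.0188) and Il17ra by -0.52 (0.0189). The last 3 lost their calls when clodrosome C was left out, which left 2 genes of the list called. Tslp also needed clodrosome A, and Il17ra encapsome B and C. Tnf, chosen after its values were seen, rose from 11.8 to 20.2 CPM (edgeR adjusted p = 0.0191), a call that failed when clodrosome A, encapsome A or encapsome B was left out (edgeR adjusted p at most 0.0837). The list then held 3 called genes without clodrosome A. Il1a (0.10, edgeR adjusted p = 0.485) and Il1b (0.44, 0.157), inducers of Csf3 in skin, were not called.

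Marker lists give the cell types in which the receptors are known to be made. Their counts called are to be read against all genes tested, of which 13.0% were lower and 9.41% higher. Neutrophil markers, a list that holds Csf3r itself, summed to 1635 to 2277 CPM with clodrosome and 1210 to 1900 CPM with encapsome. The ranges overlapped. None of 13 tested fell and 2 rose: Retnlg from 8.78 to 37.2 CPM (edgeR adjusted p = 3.66e-04) and Ly6g from 0.346 to 1.07 CPM (0.0128, or 0.0572 without encapsome library B). Langerhans cell markers summed to 488 to 526 CPM against 434 to 460 CPM, with 2 of 6 lower and 1 higher (median -0.25). Cd207, which encodes langerin, was a small part of that sum and had the lower mean with clodrosome. It had 6.10 ± 1.02 against 8.18 ± 0.874 CPM (SD, n = 3; edgeR adjusted p = 0.0774), so the higher sum does not describe Cd207. Mast cell markers, of cells that also respond to IL-3, fell for 6 of 7 (median -0.95). Of the 3 monocyte markers that fell among 8, Ccr2 went from 246 to 143 CPM (edgeR adjusted p = 0.00733). No marker of these lists was at 0 in all libraries, and the part of these shifts in the receptor results was not tested.

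**Figure D5:**
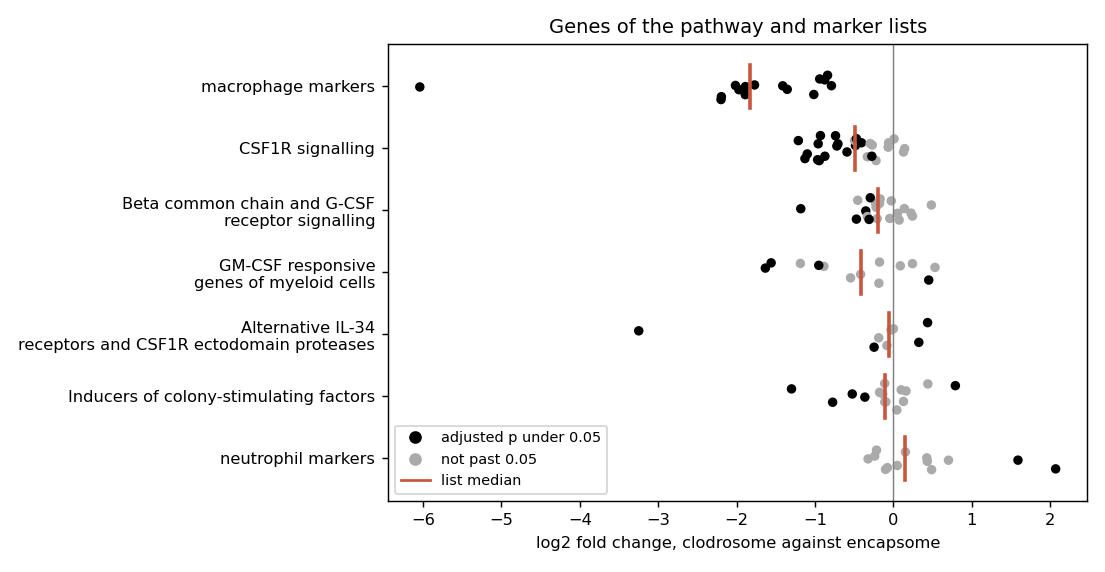
Log2 difference (clodrosome minus encapsome) of each tested gene of 5 pathway lists and of the macrophage and neutrophil markers, 1 point per gene, black where called and grey where not, with a red line at each median. Vertical scatter within a list has no meaning. The macrophage median lies at -1.83 and the CSF1R signalling median at -0.49, and the neutrophil median at 0.15.

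The genes most like each member across the 6 libraries were sought among 11639 genes of at least 5 CPM by Pearson's r of log2 CPM, a description that libraries and groups share. Csf1r ran closest to Olfml1 (r = 0.999), Fkbp15 (0.996) and Adamtsl1 (0.996). Csf2ra ran with Bcat1, Pbx2 and Prkcd (0.997 to 0.998), Csf2rb with Rspry1, Capza1 and Havcr2 (0.994, 0.994 and 0.994), and Csf2rb2 with Tead2, Mtmr10 and Pkib (0.998, 0.998 and 0.994). For Csf3 the nearest were Hdc (0.998), which makes histamine, Tsen54 (0.996) and Stfa2l1 (0.990). Csf3r ran with Msto1 (0.985), Cxcr2 (0.979) and Stk40 (0.977), Csf1 with Fhl3, Il1rap and Zfp758 (0.988, 0.973 and 0.968), and Il34 with Rce1, Myct1 and Taf8 (0.982, 0.981 and 0.980).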

How the data were processed

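Polyadenylated RNA of whole skin was sequenced as paired 150-base reads from a stranded kit, per the labels' protocols. The submitters' processing notes name Trimmomatic 0.36, HISAT2 2.2.1, StringTie 2.2.1, featureCounts 1.6.2, DESeq2 1.34.0 and mm10, with no order. The authors deposited raw counts per Ensembl 102 gene; per the file headers strand was not used, each read end counted singly, and reads with several places or genes were left out. Symbols were found for 55141 of 55487 genes. Members and lists were chosen with earlier results of these data known. edgeR 4.0.16 in R 4.3.3 (TMM, genes filtered at a minimum count of 10 and total of 15, quasi-likelihood test, Benjamini-Hochberg over all 17988 genes, threshold 0.05) compared 3 clodrosome with 3 encapsome libraries and was tested on simulated data. Counting precision was set by 26649396 to 116965654 counts per library. Both ends of a fragment could count for the same gene, so these totals overstate the number of fragments. Of counts from 1 to 20, 63.6% to 69.7% were even in a library. RLE and upper-quartile scaling, no filter, DESeq2 1.42.0 and leaving out each library were tried. All 9 members were named; of each list up to 4 genes of smallest p; and the 3 genes of highest r for each member of at least 1 CPM. Ratios used an exact permutation test. Gene lengths are the deposited ones.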

Additional observations from a re-analysis of the deposited data

How the results depend on the processing

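The 5 member calls were kept as a count under both other scalings, without the low-count filter and with DESeq2, and ranged from 3 to 5 when a library was left out. The fit without the filter is weak support, since its SEs hardly differed between members with many counts. They were 0.0935 to 0.0939 for Csf1, Csf2rb, Csf2rb2 and Csf3r, and 0.0960 for Csf1r (0.231 in the main fit). Over all genes, 4035 were called, and leaving out a library gave 2477 to 4396 (2642 without clodrosome library C). Of 80 member fits, 72 kept direction and side of the threshold, 6 lost the call (Csf1r and Csf2rb) and 2 turned in sign: Csf1 to -0.0335 without encapsome library A and Csf3r to 0.0068 without encapsome library B. The cause was not tested. Of the list medians, the eosinophil and basophil median turned from -0.19 to 0.0113 without clodrosome library A, 0.20 without encapsome library A and 0.12 without encapsome library B, and the T and innate lymphoid median from 0.30 to -0.0444 without encapsome library A. Of the 14 ratios, Csf2ra/Csf1r went from 0.32 to -0.0154 without clodrosome library B, and Csf3r/Cxcr2 from 0.0043 to -0.0553 without clodrosome library A, -0.0011 without clodrosome library C and -0.0745 without encapsome library B. Il34/Csf1 ranged from 0.0123 to 0.26, and Csf1r/Cd163 from 1.04 to 1.81. The other ratios kept their sign in the fits run. Without the low-count filter, the called GM-CSF responsive genes went from 4 to 8, monocyte markers from 3 to 7 and neutrophil markers from 2 to 6 (4 with DESeq2). The rises without the filter are to be read with the nearly uniform SEs of that fit. Depth limits Csf2, with 2 to 17 counts a library. No paired analysis was possible because the count columns carry no replicate number that the labels tie to a sample.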
